A study of Mus musculus with 134 samples.

Results

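The 6 core subunit genes of Polycomb repressive complex 2 (PRC2) were followed across the gene expression libraries of SET-seq, a method that reads histone marks and mRNA from the same cells. The genes Ezh1, Ezh2, Eed, Suz12, Rbbp4 and Rbbp7 were picked by symbol and not by their values, though with earlier results of these data known. All 6 were found among the 25209 genes of the bulk files. Of these, 5 were found among the 17622 genes of the H3K27me3 single-cell table and among the 17142 genes of the H3K4me3 single-cell table, and neither single-cell table lists Ezh1. In all, 54 bulk libraries in 27 conditions were used, with 2 libraries in each condition, together with 752 single cells.

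All libraries came from E14 mouse embryonic stem cells (mESCs) of strain 129/Ola, grown in serum with leukemia inhibitory factor and given the age day1 in the labels. Hprt mRNA was hardly found in the in vitro and knockout libraries but clearly found in the other bulk libraries, as given below. The libraries may therefore not be of the same cell stock. In the in vitro libraries, cDNA was made from total RNA of untreated cells with an oligo-dT primer, and the transposase Tn5 cut the hybrids of mRNA and cDNA directly. These libraries tested 5, 10, 15 and 30 min at 16 °C and at 37 °C, Tn5 at 25, 50 and 100 ng/µl, and RNA inputs of 300 ng, 3 ng and 30 pg. A pair of ligation-based RNA-seq libraries served as the conventional method. SET-seq libraries of untreated cells read cytoplasmic RNA after the nuclei had been bound to beads, and were made from 10, 100, 1000 or 10000 cells without an antibody, or from 100, 1000 or 10000 cells whose nuclei were assayed with an H3K4me3 or H3K27me3 antibody. The last 2 are called co-assays below. Another 4 libraries came from 2 Aebp2 knockout clones, KO1 and KO2, with 2 libraries from each clone. The single cells had been kept with Wnt3a-coated beads for 12 h, and each was recorded by the study as the cell proximal to the bead or the cell distal to it. The study calls the 2 libraries of each temperature and time biologically independent, and the 2 experiments with each knockout line independent. For the other bulk conditions the sources used here do not say whether the libraries came from separate cultures, so the p-values below measure only the spread between these libraries, which may be technical.

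PRC2 places methyl groups on histone H3 and makes H3K27me3, the mark that goes with repression of developmental genes in mESCs. EZH2 and its paralogue EZH1 are the alternative catalytic subunits, and EED and SUZ12 are needed for their activity. EED binds H3K27me3 itself, and SUZ12 is the scaffold to which the accessory subunits bind. RBBP4 and RBBP7 are closely related histone-binding proteins that PRC2 shares with other complexes, among them NuRD, Sin3 and, for RBBP4, the chromatin assembly factor CAF-1. AEBP2 is an accessory subunit. mESCs that lack EED or SUZ12 keep dividing but differentiate poorly.

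The paralogues differ enough in sequence for their reads to be told apart. On the mm9 genome, the longest stretch of exon sequence shared by Ezh1 and Ezh2 was 17 bases, and that shared by Rbbp4 and Rbbp7 was 20 bases. Both stretches lie in coding exons and are shown to give the scale of what a read must exceed to tell these paralogues apart. The first was found in Ezh1 at chr11:101054275-101054291 and in Ezh2 at chr6:47480562-47480578, both on the minus strand. The second was found in Rbbp4 at chr4:129000041-129000060 on the minus strand and in Rbbp7 at chrX:159207749-159207768 on the plus strand.
Ezh1 and Ezh2: aagtatgtgggcatcga
Rbbp4 and Rbbp7: aaccatgaaggagaagtgaa

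Sequence shared with the rest of the genome was more common. Of the 32-base windows in the exons, 30.6% occurred elsewhere in mm9 for Rbbp7, 9.44% for Suz12, 6.69% for Rbbp4 and 0.534% for Ezh1, and 0% for Ezh2 and Eed. Reads that map to several places had been left out of the counts, so levels of Rbbp7 per length are the least certain.

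The members also differ in base composition, and this is shown because several differences below ran with it. Suz12 (chr11:79806608-79847625, plus strand) had the lowest share of G and C in its exons, 41.6%, which was at the percentile of 8.24 among 12297 genes tested in the temperature series. Ezh1 (chr11:101052429-101087777, minus strand) had the highest, 51.2%. The share was 43.8% for Rbbp4 (chr4:128984344-129012614), 44.8% for Ezh2 (chr6:47480273-47545029), 45.0% for Rbbp7 (chrX:159198304-159217022) and 47.8% for Eed (chr7:97103164-97129486). The following coding windows of 120 bases, in which capitals mark G and C, come from chr11:79845347-79845466 on the plus strand, with 31.7% G and C, and from chr11:101060578-101060697 on the minus strand, with 49.2%.
Suz12: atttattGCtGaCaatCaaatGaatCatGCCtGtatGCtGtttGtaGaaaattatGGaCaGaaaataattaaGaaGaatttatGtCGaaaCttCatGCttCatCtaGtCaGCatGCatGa
Ezh1: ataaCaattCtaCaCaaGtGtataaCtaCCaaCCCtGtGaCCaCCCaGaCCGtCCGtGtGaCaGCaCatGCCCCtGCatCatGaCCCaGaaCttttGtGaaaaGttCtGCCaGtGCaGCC

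The bulk libraries held 235040 to 21520982 counts, and the precursor rRNA gene Rn45s took 1.54% to 84.6% of them. Levels are given as CPM, the usual scaling of counts to an equal library total, of the counts left without Rn45s, 188275 to 16888686 per library. Markers of embryonic stem cells summed to 3711 to 8623 CPM in the 54 libraries, and each of the 9 markers was above 0 in at least 1 library. Markers of fibroblasts reached at most 30.4 CPM, those of primitive endoderm 37.1 CPM and those of ectoderm and mesoderm 184.6 CPM, over 5 genes each. In bulk libraries, fewer cells with an mRNA and less of it per cell cannot be told apart.

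The 6 genes were expressed in mESCs, and the catalytic paralogues were far apart. Per exon length, in CPM divided by the kilobases of exon (RPKM), Ezh1 was the lowest of the 6 in 54 of 54 libraries, with a median level of 8.96 RPKM. The other 5 had median levels of 94.2 RPKM for Ezh2, 93.0 for Eed, 85.5 for Rbbp7, 67.7 for Suz12 and 65.7 for Rbbp4. These medians lay between the percentiles of 94.9 and 96.5 among 25208 genes, and that of Ezh1 at 77.6. The highest of the 6 was Eed in 18 libraries, Ezh2 in 17, Suz12 in 12, Rbbp7 in 6 and Rbbp4 in 1, so no order among these 5 held throughout. The ratio of Ezh2 to Ezh1 per length was 10.7 at the median and ran from 3.07 to 42.0 in the 52 libraries in which Ezh1 had counts.

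**Figure D1:**
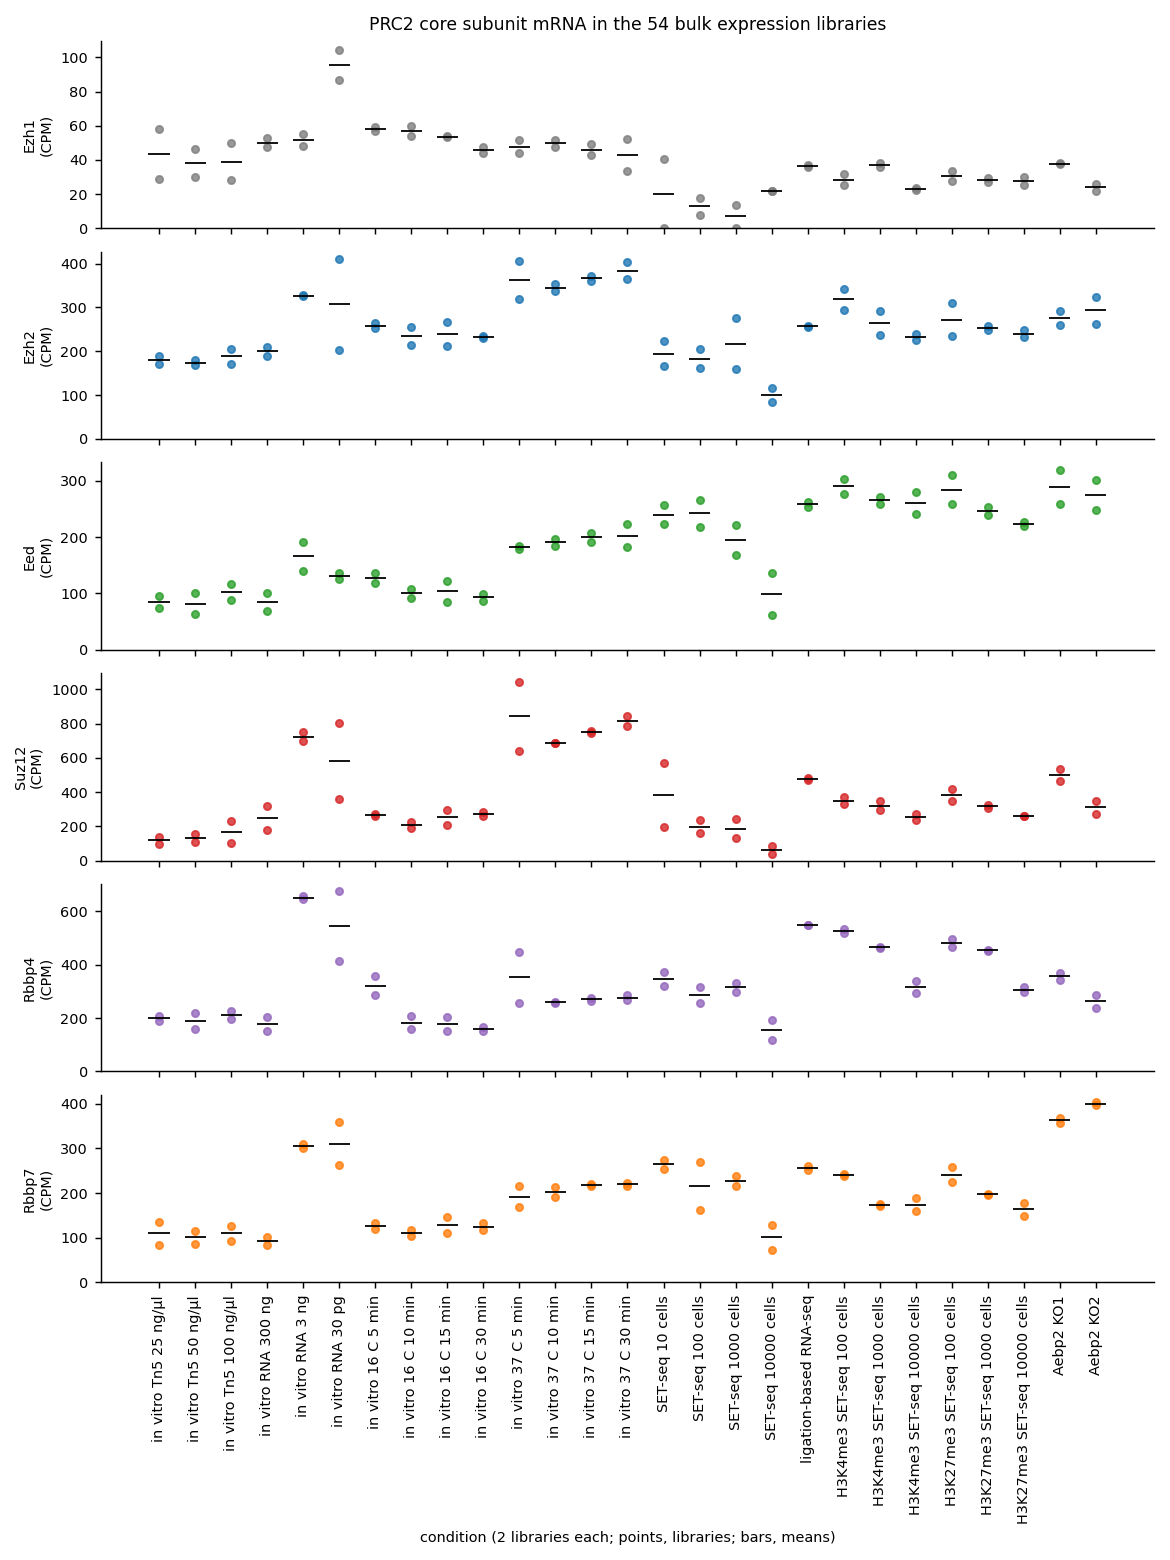
Levels of the 6 PRC2 core subunit mRNAs in CPM (vertical axis, from 0, own scale for each gene) in 27 bulk conditions (horizontal axis). Points are the 2 libraries of a condition and bars their means; Suz12 reached 1045 CPM in an in vitro library at 37 °C and fell to 39.9 CPM in a SET-seq library of 10000 cells, and Rbbp7 was highest in the Aebp2 KO clones.

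Suz12 and Ezh1 varied most between conditions, and Eed least. The mean level of Suz12 ran from 842 ± 287 CPM (SD, n = 2) in vitro at 37 °C for 5 min to 61.5 ± 30.5 CPM in SET-seq of 10000 cells without an antibody, a ratio of 13.7. For Ezh1 it ran from 95.6 ± 12.7 CPM with 30 pg RNA to 6.85 ± 9.68 CPM in SET-seq of 1000 cells, a ratio of 14.0. Ezh1 had no count in replicate 2 of SET-seq with 10 cells and in replicate 2 with 1000 cells, where 3 counts amount to 15.9 and 15.3 CPM.

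The other ratios of the highest to the lowest condition were 4.36 for Rbbp7, 4.18 for Rbbp4, 3.84 for Ezh2 and 3.54 for Eed. Rbbp7 was highest in Aebp2 KO2, at 400.2 ± 4.81 CPM, and lowest with 300 ng RNA in vitro, at 91.7 ± 13.0 CPM. Rbbp4 was highest with 3 ng RNA, at 650.2 ± 7.28 CPM, and Ezh2 at 37 °C for 30 min, at 384 ± 28.5 CPM. Eed was highest in the H3K4me3 co-assay of 100 cells, at 289.9 ± 18.7 CPM, and lowest with 50 ng/µl Tn5, at 82.0 ± 26.0 CPM. When the 27 conditions were ordered by a gene's mean, 21 to 24 of the 26 neighbouring pairs differed by no more than the larger SD of the pair, so the order holds between distant conditions and not step by step.

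Across the 27 conditions, Ezh2 and Suz12 had like patterns. The correlation of their mean log2(CPM + 1) was 0.92 (Pearson's r), among 8746 genes compared. It is given as a description with no test, since the conditions fall into groups that differ in method, depth and Hprt, which is given below. The genes most like Ezh2 were Hnrnpll (0.94), Smc4 (0.92) and Casp8ap2 (0.92), and those most like Suz12 were Eif5 (0.95), Casp8ap2 (0.94) and Smc2 (0.94). Eed resembled Haus3 (0.96), Brix1 (0.96) and Nmd3 (0.96) the most, and Rbbp7 resembled Msh6 (0.91), Ift74 (0.89) and Thoc1 (0.88). For Rbbp4 these were Fbxo3 (0.89), Rps6kb1 (0.88) and Dse (0.88), and for Ezh1 Brd1 (0.86), Ccdc186 (0.86) and Phf21a (0.84). The correlation of Ezh1 with Ezh2 was 0.38, and that of Rbbp4 with Rbbp7 was 0.73.

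Tagmentation temperature changed the members unequally, and Suz12 most of all. Of the 6, 5 were higher at 37 °C than at 16 °C, where 61.1% of 12297 genes were called (edgeR, adjusted p below 0.05) with 30.1% called higher and 31% called lower. Suz12, the scaffold subunit, was at 193 to 298 CPM in the 8 libraries at 16 °C, with a median of 258, and at 639 to 1045 CPM in the 8 libraries at 37 °C, with a median of 752. No library of one temperature overlapped with the other. How many of all genes were apart in this way was not counted, here or in the comparisons below. The log2 fold change of Suz12 was 1.67 ± 0.08 (SE), or 3.19-fold, with an adjusted p of 8.8e-17 by edgeR.

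Eed was at 85.7 to 137 CPM at 16 °C, with a median of 104, and at 179 to 223 CPM at 37 °C, with a median of 188. Rbbp7 was at 103 to 147 CPM at 16 °C, with a median of 118, and at 168 to 224 CPM at 37 °C, with a median of 216. Ezh2, the main methyltransferase subunit of these cells by level, was at 211 to 266 CPM with a median of 244 at 16 °C, and at 319.6 to 407 CPM with a median of 362 at 37 °C. None of these 3 genes overlapped between the temperatures. Their log2 fold changes were 0.92 ± 0.08 for Eed, 0.82 ± 0.07 for Rbbp7 and 0.63 ± 0.06 for Ezh2.

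Rbbp4 overlapped, with 149.5 to 356 CPM and a median of 185 at 16 °C and 257 to 448 CPM and a median of 267 at 37 °C, and its log2 fold change was 0.55 ± 0.09 (adjusted p = 5.2e-06, edgeR). In the 4 libraries of 5 min alone, the log2 fold change of Rbbp4 was 0.20 ± 0.17, which did not pass (adjusted p = 0.398, edgeR). Ezh1, the low paralogue, was at 44.3 to 59.6 CPM with a median of 53.9 at 16 °C, and at 33.5 to 52.5 CPM with a median of 48.6 at 37 °C. Its log2 fold change was -0.12, with a 95% interval from -0.28 to 0.03.

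Time at a given temperature went with a called difference in Rbbp4 alone among the 6. Between 30 and 5 min, 7.21% of 12297 genes were called, 4.55% higher and 2.66% lower, and of the 6 members Rbbp4 was lower at 30 min by a log2 fold change of -0.62 ± 0.13 (adjusted p = 0.0045, edgeR). At 16 °C its libraries held 356 and 286 CPM at 5 min and 166 and 149.5 CPM at 30 min. At 37 °C they held 257 and 448 CPM at 5 min and 268 and 285 CPM at 30 min, so the libraries of the 2 times were apart at 16 °C and overlapped at 37 °C. The log2 fold changes of the other members lay between -0.16 and 0.15.

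**Figure D2:**
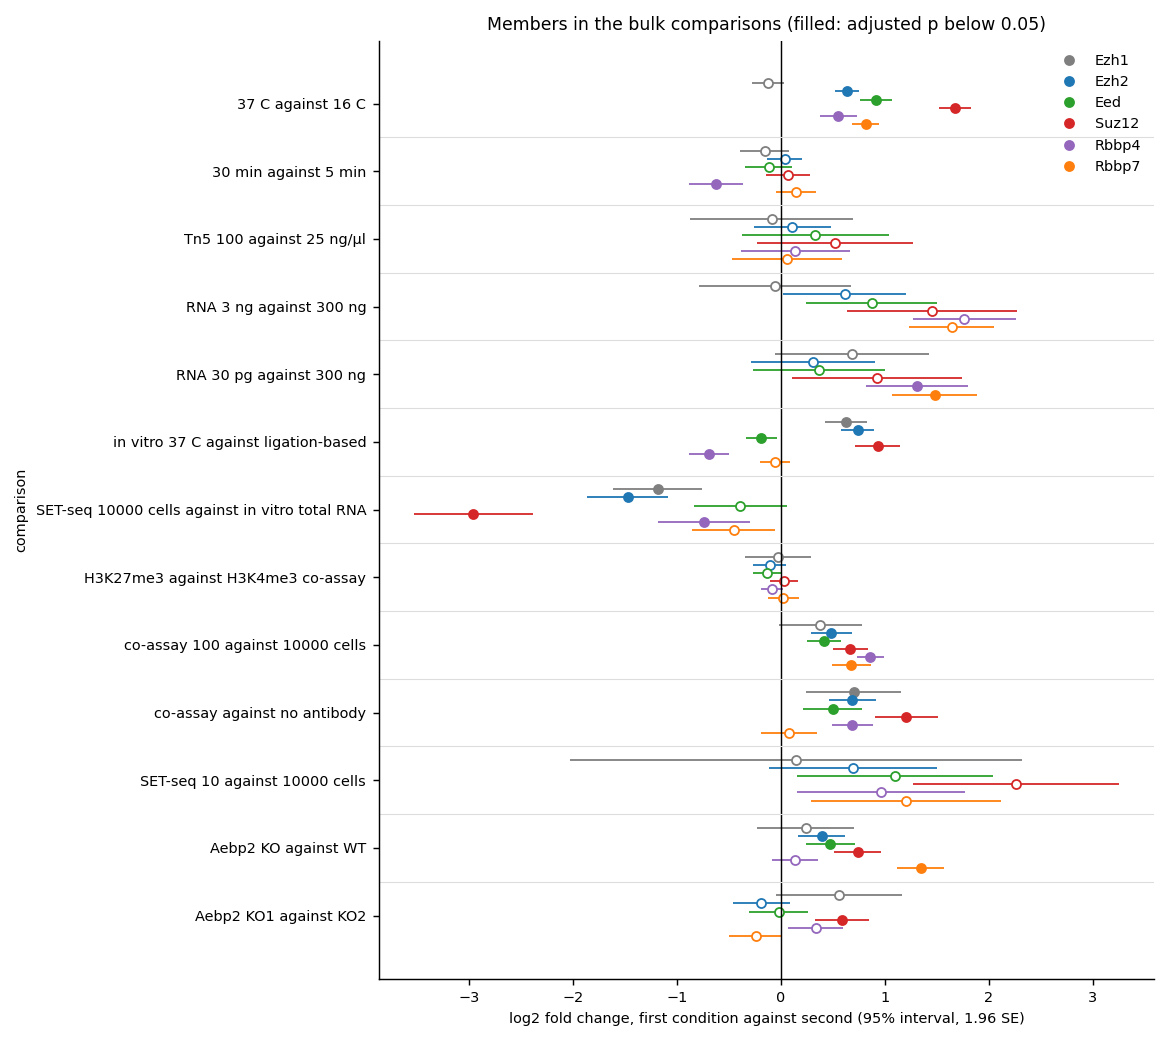
Log2 fold changes of the 6 members (horizontal axis) in 13 bulk comparisons (vertical axis), as fitted by edgeR. Lines are nominal 95% intervals (1.96 SE), which are too narrow where libraries are few, and filled points have an adjusted p below 0.05. Suz12 stands furthest from 0 both at 37 °C against 16 °C, at 1.67, and in SET-seq of 10000 cells against in vitro total RNA, at -2.95.

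Genes of the partner complexes were called about as often as all genes were, of which 61.1% were called between the temperatures. Of the PRC2 accessory genes, 5 of 8 tested were higher at 37 °C and 0 were lower, led by Mtf2, whose product guides PRC2 to CpG islands (log2 fold change 0.69 ± 0.06), and Epop (0.52 ± 0.06). Of the 15 genes of the NuRD and Sin3 histone deacetylase complexes, 7 were higher and 4 lower, with Mbd3 at -1.11 ± 0.07 and Hdac2 at 0.83 ± 0.08. Of the 6 genes of CAF-1, of the histone acetyltransferase HAT1 and of the remodeller NURF, 3 were higher and 2 lower, with Smarca1 at 1.44 ± 0.22 and Smarca5 at 1.17 ± 0.07. The median log2 fold change was 0.73 over the 6 core members and -0.02 over all genes tested.

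GC content moved with the temperature difference across genes. Over 12297 genes, the rank correlation between exon GC content and log2 fold change was -0.55 (Spearman's rho, across genes, which are not independent replicates). Among the 621 genes with a GC content of 40% to 42%, the median log2 fold change was 0.55 and the 90th percentile 1.16, and Suz12 at 1.67 lay above it. Eed at 0.92 was also above the 90th percentile of the 1222 genes with 46% to 48%, 0.84. Rbbp7, Ezh2 and Rbbp4 lay between the median and the 90th percentile of their bins, and Ezh1 at -0.12 was close to the median of -0.08 in its own. The share of Rn45s also moved, with 11.8% to 25.1% of counts at 16 °C and 33.0% to 40.7% at 37 °C. The part of either in the members' differences was not tested.

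**Figure D3:**
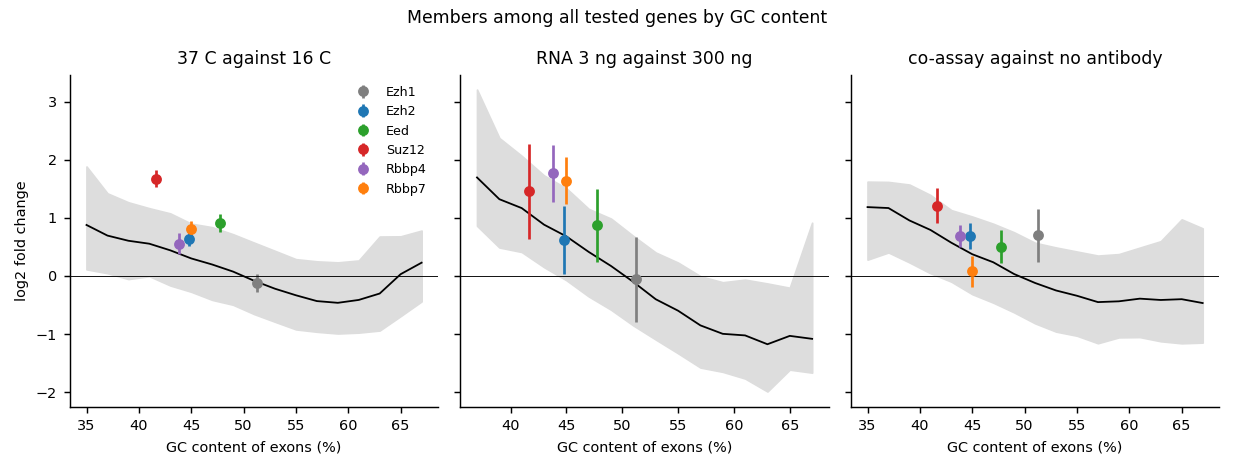
Exon GC content in % (horizontal axis) against the log2 fold change (vertical axis) for the 6 members, with 95% intervals, in 3 comparisons. The black line is the median and the grey band the 10th to 90th percentile of all tested genes in bins of 2 percentage points with at least 20 genes; Suz12 lies above the band at 37 °C against 16 °C, and the black line falls between 40% and 52% GC in the 3 panels.

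The amount of Tn5 made no difference that passed the test. Between 100 and 25 ng/µl, edgeR called 0 of 13177 genes, 0% of those tested, and 84 had an unadjusted p below 0.05, while DESeq2 also called 0. Same-numbered libraries of the 3 amounts deviated together, and a fit blocked on the replicate number also called 0 genes, with 1587 at an unadjusted p below 0.05. The 6 libraries of the 3 amounts held 98.6 to 229 CPM of Suz12, with a median of 125, and 168 to 205 CPM of Ezh2, with a median of 175. The intervals of the log2 fold changes were wide, from -0.23 to 1.27 for Suz12 and from -0.26 to 0.48 for Ezh2. With the block, the log2 fold changes were 0.43 ± 0.15 for Suz12, 0.33 ± 0.11 for Eed and 0.10 ± 0.10 for Ezh2, which did not pass (adjusted p = 0.275, 0.271 and 0.706, edgeR).

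Less input RNA went with higher Rbbp4 and Rbbp7. Rbbp4 was at 206 and 153 CPM with 300 ng, at 655 and 645 CPM with 3 ng and at 413 and 674 CPM with 30 pg. Rbbp7 was at 101 and 82.6 CPM with 300 ng, at 302 and 309 CPM with 3 ng and at 262 and 359 CPM with 30 pg. In both genes the 300 ng libraries lay below all others.

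With 30 pg, the log2 fold changes against 300 ng were 1.31 ± 0.25 for Rbbp4 and 1.48 ± 0.21 for Rbbp7 (adjusted p = 0.0216 and 0.0191, edgeR), the 2 members called where 22.7% of 10753 genes were called and 2.12% were called higher. Both calls were lost when any of the 300 ng or 3 ng libraries was left out, with adjusted p of 0.0634 to 0.146, and under a replicate block (0.0712, edgeR), while the log2 fold changes stayed between 1.09 and 1.59. Without replicate 1 of 30 pg, Suz12 (1.31) and Ezh2 (0.65) passed as well, and without replicate 2 Ezh1 (0.86) did. The median log2 fold change of all genes was -0.44 in this comparison.

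With 3 ng, edgeR called 0 of 10753 genes (0%), and 1558 had an unadjusted p below 0.05. The log2 fold changes were 1.77 ± 0.25 for Rbbp4, 1.64 ± 0.21 for Rbbp7 and 1.45 ± 0.42 for Suz12, with adjusted p of 0.165, 0.165 and 0.242 by edgeR. DESeq2 called 822 genes, among them these 3. When either 30 pg library was left out, which leaves the 30 pg group without a spread of its own, 5 members were called, with Eed at 0.85 and Ezh2 at 0.59 on the log2 scale in both fits. The rank correlation of GC content with the log2 fold change was -0.75 across 10753 genes, and Rn45s took 17.4% and 18.2% of counts with 300 ng and 78.5% and 84.6% with 3 ng. Their part in the members' differences was not tested.

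The subunits stood in different balances in the in vitro libraries at 37 °C and in the ligation-based libraries. The ligation-based libraries held 483 and 470.2 CPM of Suz12, 256 and 257 CPM of Ezh2 and 37.3 and 36.1 CPM of Ezh1, and these 3 genes were higher in vitro at 37 °C, by log2 fold changes of 0.93 ± 0.11, 0.74 ± 0.08 and 0.63 ± 0.10. Rbbp4 was at 549 and 547 CPM in the ligation-based libraries, above all 8 in vitro libraries, and lower in vitro by -0.69 ± 0.10. Eed, at 263 and 253 CPM in the ligation-based libraries, was lower by -0.19 ± 0.08 (adjusted p = 0.0264, edgeR). Rbbp7 was at 259.7 and 252 CPM and its log2 fold change was -0.06, with an interval from -0.20 to 0.09. Thus 5 of 6 members were called, 3 higher and 2 lower, where 82.4% of 11766 genes were called, 38.6% higher and 43.8% lower.

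Hprt, by which E14 stocks can differ, was at 184 and 181 CPM in the ligation-based libraries and at 0 to 1.29 CPM in the 8 in vitro libraries, so a difference between cell stocks and one between methods cannot be told apart.

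Among the lists, 2 accessory genes were higher in vitro and 5 lower of 9 tested, with AU022751, the symbol in these files for the PRC2 inhibitor Ezhip, at -4.12 ± 0.57 and Phf1 at -1.49 ± 0.22. Of 15 NuRD and Sin3 genes, 9 were higher and 4 lower, with Mta2 at -2.37 ± 0.08 and Mbd2 at 1.64 ± 0.11. Of the 6 genes of CAF-1, HAT1 and NURF, 3 were higher and 3 lower, with Smarca5 at 1.80 ± 0.10 and Chaf1b at 1.32 ± 0.08. The call of Eed was lost without any of 5 of the 10 libraries, namely the 2 ligation-based libraries, replicate 1 at 5 min and replicate 2 at 15 and at 30 min, with values from -0.21 to -0.13, and with DESeq2 (-0.16). With the libraries at 16 °C in place of 37 °C, Suz12 was lower than in the ligation-based libraries, at -0.68 ± 0.08, and Rbbp7 was lower too, at -0.81 ± 0.08 (adjusted p = 3.9e-07 and 1.6e-08, edgeR). So the direction for Suz12 differed between the 2 tagmentation temperatures.

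SET-seq of 10000 cells without an antibody held far less Suz12 than total RNA did. Its 2 libraries had 39.9 and 83.1 CPM of Suz12, against 639 and 1045 CPM in vitro at 37 °C for 5 min and 318 and 179 CPM with 300 ng RNA. Ezh2 was at 83.6 and 116 CPM, against 319.6 and 407 CPM and 210.0 and 189.7 CPM in the same in vitro groups. Ezh1 was at 22.0 and 21.8 CPM, against 51.6 and 43.8 CPM and 47.7 and 52.7 CPM. In all 3 genes the SET-seq libraries lay below every in vitro library compared.

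The log2 fold changes were -2.95 ± 0.29 for Suz12, -1.47 ± 0.20 for Ezh2 and -1.19 ± 0.22 for Ezh1, and -0.74 ± 0.23 for Rbbp4, so 4 of 6 members were called lower where 52.9% of 12091 genes were called and 27.4% were called lower. Eed at -0.39 and Rbbp7 at -0.45 did not pass, with intervals from -0.84 to 0.06 and from -0.86 to -0.05. Without replicate 2 of SET-seq both passed, at -0.90 and -0.77, and without replicate 2 of the 37 °C group Rbbp4 did not, at -0.51 (adjusted p = 0.0883, edgeR). Against the 300 ng group alone, the value for Rbbp4 was -0.27 ± 0.24, which did not pass, and against the 37 °C group alone Eed (-0.82) and Rbbp7 (-0.87) passed.

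Of 8 accessory genes tested, 0 were higher and 4 lower, with Lcorl at -2.69 ± 0.66 and Mtf2 at -1.98 ± 0.23. Of 15 NuRD and Sin3 genes, 4 were higher and 9 lower, and the catalytic subunit of NuRD, Chd4, was at -2.70 ± 0.21 and Mbd2 at -2.39 ± 0.24. Of the 6 genes of CAF-1, HAT1 and NURF, 0 were higher and 3 lower, with Smarca5 at -2.05 ± 0.27 and Bptf at -1.32 ± 0.19. The median over all genes tested was -0.01. Hprt was at 66.2 and 125 CPM in these SET-seq libraries and at 0 to 0.19 CPM in the in vitro libraries compared. Thus a difference between cell stocks and one between cytoplasmic and total RNA cannot be told apart. Other libraries of cytoplasmic RNA held more Suz12. It was at 239.6 to 274 CPM in the co-assays of 10000 cells, where Hprt was at 273 to 314 CPM. In SET-seq of 10 to 1000 cells without an antibody, Suz12 was at 129.7 to 568 CPM. The cause was not tested.

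The co-assay libraries held more of 5 of the 6 subunit mRNAs than the SET-seq libraries without an antibody. By the study's methods, the supernatant that gives the RNA is taken off before the antibody is added to the nuclei, so these are sets of libraries whose RNA had not met the antibody. The 12 co-assay libraries held 239.6 to 418 CPM of Suz12, with a median of 316, against 39.9 to 245 CPM in the 6 libraries without an antibody of 100 to 10000 cells, with a median of 144. Ezh2 was at 226 to 342 CPM, with a median of 249, against 83.6 to 276 CPM, with a median of 160.3. Ezh1 was at 22.1 to 38.0 CPM, with a median of 28.7, against 0 to 22.0 CPM, with a median of 15.8. For Suz12 and Ezh2 the groups overlapped by a few libraries, and for Ezh1 all co-assay libraries lay above those without an antibody.

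The log2 fold changes, with the cell number in the model, were 1.21 ± 0.15 for Suz12, 0.70 ± 0.23 for Ezh1, 0.69 ± 0.12 for Ezh2, 0.69 ± 0.10 for Rbbp4 and 0.50 ± 0.14 for Eed. These 5 members were called higher where 37.7% of 12665 genes were called with 18.7% called higher and 19% called lower. Rbbp7 was at 0.08, with an interval from -0.19 to 0.35. The call of Ezh1 was lost without replicate 1 of SET-seq with 1000 cells, at 0.65 (adjusted p = 0.0631, edgeR).

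Of 9 accessory genes, 3 were higher and 0 lower, with Lcorl at 1.40 ± 0.52 and Mtf2 at 1.01 ± 0.16. Of the NuRD and Sin3 genes, 3 were higher and 3 lower, with Suds3 at -0.90 ± 0.11 and Gatad2b at 0.50 ± 0.12, and of CAF-1, HAT1 and NURF genes 4 were higher and 1 lower, with Smarca1 at 2.72 ± 0.61 and Smarca5 at 0.99 ± 0.15. GC content moved with this difference too, with a rank correlation of -0.55 across 12665 genes. Suz12 at 1.21 and Ezh2 at 0.69 lay between the median and the 90th percentile of their GC bins, Ezh1 at 0.70 above the 90th percentile of 0.57, and Rbbp7 at 0.08 below the median of 0.37. The part of GC content was not tested.

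Which of the 2 antibodies was used made no detectable difference. Between the H3K27me3 and H3K4me3 co-assays edgeR called 0 of 12124 genes (0%), 375 had an unadjusted p below 0.05, and DESeq2 called 0. All 6 members had log2 fold changes between -0.13 and 0.03. The interval of Rbbp4 ran from -0.20 to 0.02. For Ezh1 the interval was wider, from -0.35 to 0.29.

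Fewer cells in the co-assay went with higher levels of 5 members. Rbbp4 was at 466 to 535 CPM in the 4 libraries of 100 cells, at 451 to 467 CPM with 1000 cells and at 293 to 338 CPM with 10000 cells. Rbbp7 was at 224 to 259 CPM, 172 to 197 CPM and 149.5 to 189 CPM in the same order. The 4 libraries of 100 cells lay above the 4 of 10000 cells for both genes, and also for Suz12, with 329 to 418 CPM against 239.6 to 274 CPM.

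The log2 fold changes of 100 against 10000 cells were 0.86 ± 0.07 for Rbbp4, 0.68 ± 0.09 for Rbbp7, 0.67 ± 0.09 for Suz12, 0.49 ± 0.10 for Ezh2 and 0.42 ± 0.08 for Eed, with adjusted p from 5.9e-08 to 0.00176 by edgeR. These were called where 20.4% of 12124 genes were called with 11.3% called higher and 9.16% called lower. Ezh1 was at 0.38, with an interval from -0.01 to 0.78. Of 9 accessory genes, 0 were higher and 1 lower, Epop at -0.92 ± 0.14. Of the NuRD and Sin3 genes 5 were higher and 1 lower, with Chd4 at 1.15 ± 0.14 and Hdac1 at 1.01 ± 0.17, and of CAF-1, HAT1 and NURF genes 3 were higher and 0 lower, with Hat1 at 0.76 ± 0.06 and Smarca5 at 0.57 ± 0.08. Rn45s took 24.6% to 30.4% of counts with 100 cells and 15.2% to 23.4% with 10000 cells, and the rank correlation of GC content with the log2 fold change was -0.22 across 12124 genes. The part of either was not tested.

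Without an antibody, cell numbers could not be compared as closely. Between 10 and 10000 cells edgeR called 0 of 11916 genes (0%), with 2051 at an unadjusted p below 0.05. Suz12 was at 198 and 568 CPM with 10 cells, 159 and 235 CPM with 100 cells, 129.7 and 245 CPM with 1000 cells and 39.9 and 83.1 CPM with 10000 cells. The libraries of 10000 cells were the lowest for Suz12, as they were for the other members except Ezh1.

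The log2 fold change of Suz12 was 2.26 ± 0.51 (adjusted p = 0.188, edgeR). DESeq2 called 271 genes and Suz12 among them (2.35 ± 0.65), and so did edgeR without a filter on low counts (2.24) and with a replicate block (2.27, adjusted p = 0.041, edgeR). Without replicate 1 of 10 cells Suz12 passed at 2.66 and without replicate 2 at 1.69, and in the latter fit Eed, Rbbp4 and Rbbp7 passed as well, at 1.38, 1.25 and 1.44. Replicate 2 of 10 cells held 235040 counts, so its values are the least precise. The median log2 fold change of all genes was -0.38 in this comparison.

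In the Aebp2 knockout clones Rbbp7 stood out among the members. AEBP2 was targeted with 2 guide RNAs, shown here with the NGG motif that follows on the genome in capitals, because the targeted gene is the check on these libraries. The first matches chr6:140582382-140582401 on the plus strand, inside a coding exon, and the second chr6:140586176-140586195 on the plus strand, with 15 of its 20 bases in an exon. Which guide gave which clone is not given in the sources used here.
Aebp2 guide 1: attcgctccatacatgtcgaTGG
Aebp2 guide 2: aacaggtgttcgtttgcttgTGG

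Aebp2 mRNA itself was at 15.7 and 15.0 CPM in KO1 and at 49.7 and 30.2 CPM in KO2. The labels name no wild type (WT) library for the clones, and the 2 H3K27me3 co-assay libraries of 10000 cells were taken as WT, since the knockout libraries carry the same antibody in their titles. These held 65.5 and 76.0 CPM of Aebp2, above all 4 libraries of the clones, and the log2 fold change of KO against WT was -1.39 ± 0.22 (adjusted p = 7.6e-06, edgeR). Other candidate WT groups held different amounts of Aebp2. The mean was 36.8 ± 2.97 CPM in the H3K27me3 co-assay of 100 cells and 35.4 ± 1.32 CPM in SET-seq of 10000 cells without an antibody. Both means lay between the libraries of KO2 and above those of KO1. It was 56.6 ± 6.97 CPM in the H3K27me3 co-assay of 1000 cells and 83.4 ± 1.68 CPM in vitro at 37 °C for 5 min. Between the clones Aebp2 was lower in KO1 by -1.46 ± 0.34. The libraries count reads over the whole mRNA, so a small deletion at a guide site need not lower the count.

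Rbbp7 was at 358 and 368 CPM in KO1, at 404 and 397 CPM in KO2 and at 149.5 and 178 CPM in WT. All 4 libraries of the clones lay above every other bulk library except replicate 2 of 30 pg RNA, which at 359 CPM exceeded KO1 replicate 1. The log2 fold change against WT was 1.34 ± 0.12, or 2.54-fold (adjusted p = 9.6e-10, edgeR). The spread behind these values is that between libraries of a clone or of WT, and not that between clones. KO1 alone was at 1.22 ± 0.13 and KO2 alone at 1.46 ± 0.13.

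Suz12 was at 466 and 536 CPM in KO1, 347 and 275 CPM in KO2 and 263 and 259 CPM in WT, Eed at 319.8 and 259 CPM, 302 and 247 CPM, and 219.8 and 227 CPM, and Ezh2 at 260.0 and 291 CPM, 324 and 262 CPM, and 248 and 232 CPM. For each of these 3 genes the lowest library of the clones was above the highest of WT. Their log2 fold changes were 0.74 ± 0.12 for Suz12, 0.48 ± 0.12 for Eed and 0.39 ± 0.12 for Ezh2, so 4 of 6 members were called higher where 57.3% of 9523 genes were called with 27.8% called higher and 29.5% called lower. The study used a rule of a log2 fold change above 1 or below -1 and a p below 0.05 without adjustment, on DESeq2's values. On edgeR's values and with the WT libraries taken here, Rbbp7 alone passed, where 30% of genes did.

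Rbbp4, the paralogue of Rbbp7, was at 343 and 368 CPM in KO1, 286 and 239 CPM in KO2 and 297 and 315 CPM in WT, and its log2 fold change was 0.14, with an interval from -0.08 to 0.35. The ratio of Rbbp4 to Rbbp7 per length was lowest of all 54 libraries in KO2, at 0.311, against a median of 0.826. Ezh1 was at 38.3 and 37.4 CPM in KO1, 21.9 and 25.8 CPM in KO2 and 25.1 and 30.0 CPM in WT. Its log2 fold change was 0.24, with an interval from -0.23 to 0.71.

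**Figure D4:**
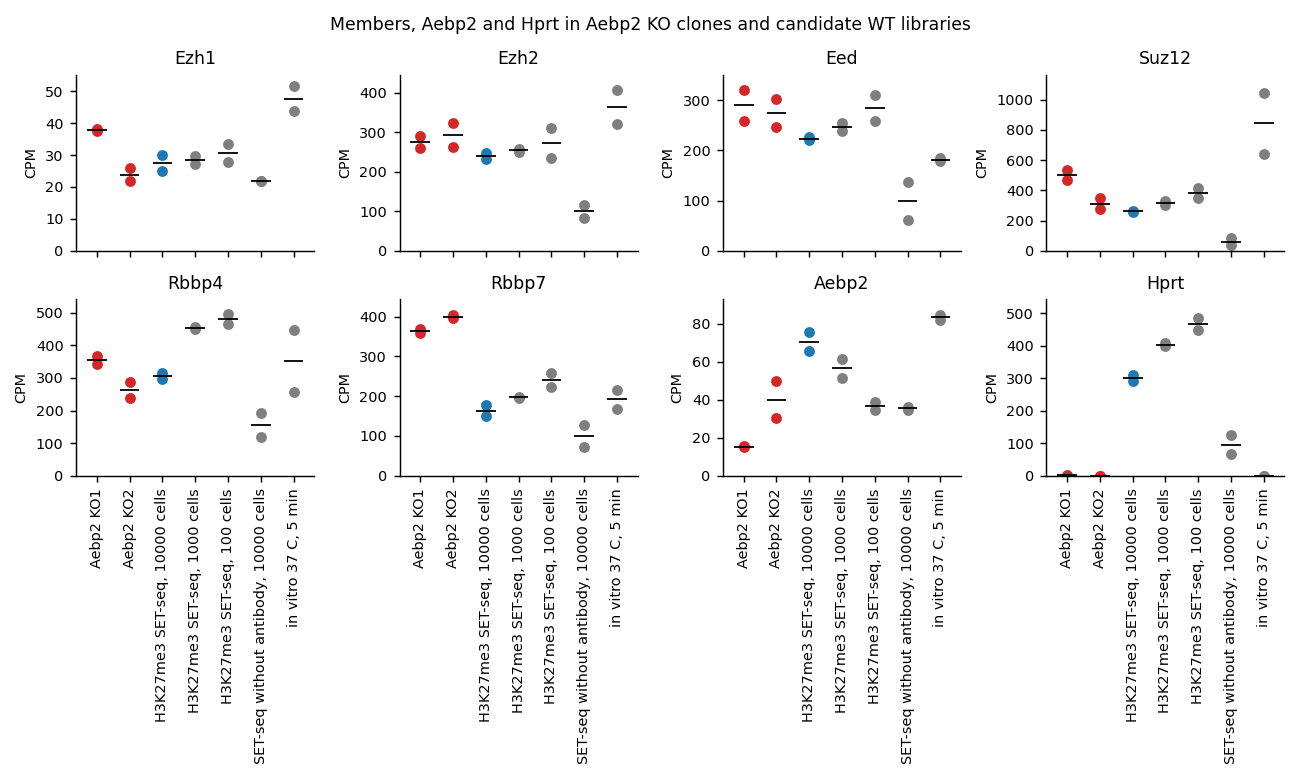
Levels in CPM (vertical axis, from 0, own scale for each gene) of the 6 members, Aebp2 and Hprt in the Aebp2 KO clones (red), the libraries taken as WT (blue) and other candidate WT libraries (grey). Points are libraries and bars means of 2; Rbbp7 is higher in the clones than in each candidate group, while Suz12 is lower in the clones than in vitro and Hprt is near 0 in the clones and in vitro.

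How far the other members differed depended on the WT libraries chosen. With the 6 H3K27me3 co-assay libraries of 100 to 10000 cells as WT, Rbbp7 was at 0.93 ± 0.16 and the other calls were lost, with Suz12 at 0.31 ± 0.16, Eed at 0.18 ± 0.14 and Ezh2 at 0.17 ± 0.13. Rbbp4 turned to -0.43 ± 0.17 there, which did not pass (adjusted p = 0.0567, edgeR). With SET-seq of 10000 cells without an antibody, Rbbp7 was at 1.81 ± 0.19, and with the in vitro libraries at 37 °C for 5 min it was at 1.01 ± 0.15. In the last case Suz12 turned to -1.07 ± 0.15, Ezh2 to -0.33 ± 0.15 and Ezh1 to -0.64 ± 0.27, while Eed stayed higher at 0.66 ± 0.16. The value of Ezh2 did not pass in this case (adjusted p = 0.0592, edgeR), nor did that of Rbbp4, at -0.18. With the main WT libraries, the call of Ezh2 was lost without WT replicate 2 (0.33, adjusted p = 0.149, edgeR), and with no filter on low counts it was 0.28 and did not pass. In KO1 alone Ezh2 was at 0.30 and did not pass, while Rbbp4 passed at 0.31, and Rbbp4 also passed with SET-seq without an antibody as WT, at 0.86.

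Hprt was at 0 to 2.14 CPM in the 4 libraries of the clones and at 310.3 and 291 CPM in the libraries taken as WT, so a difference between cell stocks and one from the knockout cannot be told apart. It was at 0 in both in vitro libraries of 37 °C and 5 min. Rn45s took 48.8% to 56.7% of the counts in the clones and 21.9% and 23.4% in WT, and its part was not tested. Markers of embryonic stem cells summed to 3711 to 4272 CPM in the clones and to 5656 to 5767 CPM in WT, with 0 of the 9 markers at 0 in all libraries.

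The other complexes that hold RBBP4 or RBBP7 were counted against the same WT libraries, where 57.3% of all genes were called, 27.8% higher and 29.5% lower. Of 15 NuRD and Sin3 genes, 8 were higher and 3 lower, with Chd4 at 2.49 ± 0.13 and Mta3 at 1.30 ± 0.14. Of the 6 genes of CAF-1, HAT1 and NURF, 5 were higher and 0 lower, with Bptf, the largest subunit of NURF, at 1.04 ± 0.11 and the ATPase gene Smarca5 at 1.00 ± 0.12. Of 7 accessory genes tested, 3 were higher and 2 lower, with Epop at -1.77 ± 0.11 and Lcorl at 1.55 ± 0.45. The median over all genes tested was -0.02.

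Between the clones, Suz12 was higher in KO1 than in KO2, by 0.59 ± 0.13 on the log2 scale (adjusted p = 0.0051, edgeR), the only member called where 11.8% of 9523 genes were called, 5.88% higher and 5.89% lower in KO1. Without KO1 replicate 2 it was at 0.49 and did not pass (adjusted p = 0.124, edgeR), and without KO2 replicate 1 Rbbp4 passed too, at 0.45. The study's rule, on edgeR's values, called 0 of the 6 and 6.97% of the genes. Rbbp7 was at -0.24, with an interval from -0.50 to 0.01.

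In single cells, 545 of the 752 cells passed the filter of more than 1000 and fewer than 5000 genes, 335 of 384 in 10 H3K27me3 experiments and 210 of 368 in 6 H3K4me3 experiments. Reads were counted on exons and introns without molecular identifiers, so the intervals below cover counting error only, and leave aside that cells share an experiment. The 96 cell barcodes are those of plate wells, and 80 of them were used in more than 1 experiment. The median total was 199766 counts per cell for H3K27me3 and 104474.5 for H3K4me3.

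H3K27me3 experiments 8 to 10 stood apart from the others. Of their 165 cells, 152 had no count of any of the 5 listed members, although their median total of 241600 counts was above the 63880 counts of experiments 1 to 7. Rbbp4 was found in 0 of 165 cells. A count of 0 allows up to 3 such cells, or a share of 1.82%, a limit on cells with a count and not on cells that express the gene. Ezh2 was found in 2, Eed in 6, Suz12 in 1 and Rbbp7 in 5 cells. Pou5f1, the pluripotency gene that marks mESCs, was also found in 0 of the 165 cells, and in 33 of 170 cells of experiments 1 to 7 and 45 of 210 cells of H3K4me3. The shares of cells below are given with and without these 3 experiments. The shares of counts held by top cells and the H3K27me3 fold changes by position include them. For position in H3K27me3 without them, only the number of members called is given.

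**Figure D5:**
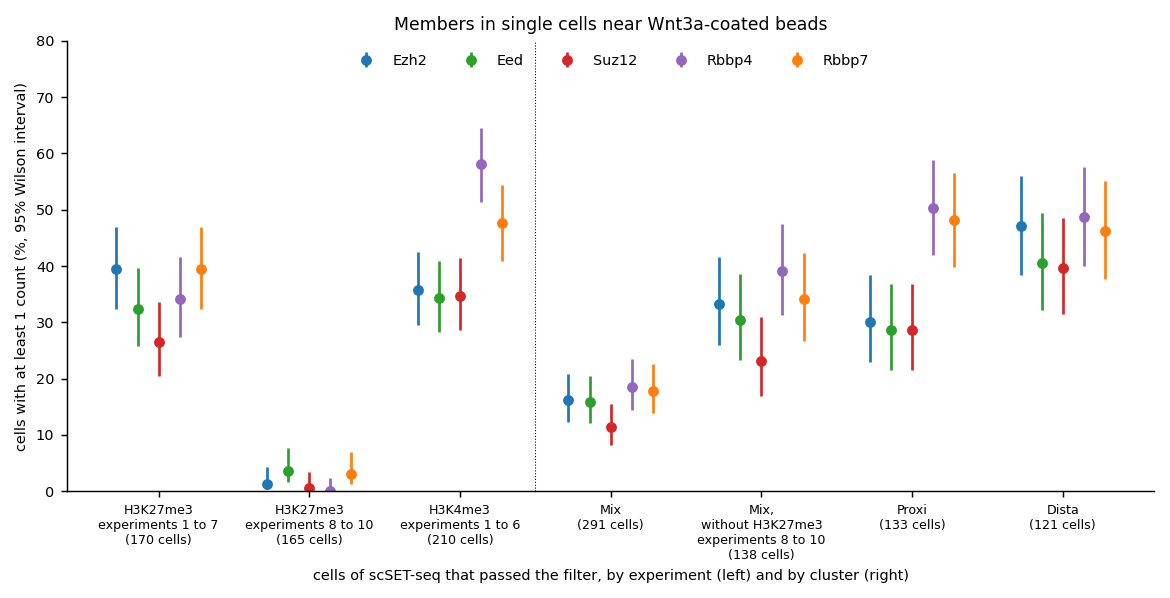
Share of cells with at least 1 count (vertical axis, in %) of the 5 members listed in the single-cell tables, by group of experiments on the left and by cluster on the right of the dotted line. Points are shares and lines 95% Wilson intervals; H3K27me3 experiments 8 to 10 lie at 0% to 3.64%, and the shares in Mix cells are higher once these experiments are left out.

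Over all 545 cells, Rbbp4 was found in 33.0% and Rbbp7 in 31.6% of cells, Ezh2 in 26.4%, Eed in 24.4% and Suz12 in 21.8%. In H3K27me3 experiments 1 to 7, Ezh2 and Rbbp7 were each found in 39.4% of 170 cells (Wilson 95% interval 32.4% to 46.9%), Rbbp4 in 34.1%, Eed in 32.4% and Suz12 in 26.5%. In the H3K4me3 experiments, Rbbp4 was found in 58.1% of 210 cells (51.3% to 64.6%), Rbbp7 in 47.6%, Ezh2 in 35.7%, Suz12 in 34.8% and Eed in 34.3%. With H3K27me3 experiments 8 to 10 left out, 25 of 170 and 25 of 210 cells had none of the 5, and 2 and 9 cells had all 5.

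Levels per experiment spread widely. In summed cells of an experiment, Rbbp4 ran from 1.85 to 142 CPM over H3K27me3 experiments 1 to 7 and from 1.36 to 296 CPM over the 6 H3K4me3 experiments, and Ezh2 from 0.385 to 226 CPM and from 4.13 to 305 CPM. A few cells carried the sums. The top cell held 61.9% of all Rbbp7 counts of the H3K27me3 cells, and 10.6% of the Rbbp4 counts of the H3K4me3 cells at the other end. One H3K27me3 cell of experiment 9 held 43.3% of the Eed counts, at 8934 CPM.

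Proximal and distal cells could not be told apart by these genes. edgeR, on sums per experiment and position with the experiment as a block, called 0 of 3716 genes (0%) in H3K27me3 and 0 of 4674 genes (0%) in H3K4me3, with 112 and 227 genes at an unadjusted p below 0.05. DESeq2 called 60 and 227 genes, with 0 members among them. In H3K27me3, Eed was higher in proximal cells in 7 of 9 experiments, with a log2 fold change of 1.58 and an interval from -1.12 to 4.28, and Rbbp4 in 6 of 9 experiments with 3 equal, at 1.96 and an interval from -0.83 to 4.74. Ezh2 was higher in proximal cells in 2 of 9 experiments with 1 equal, at -0.52. Those 2 were experiments 8 and 9, with 2 and 1 counts against 0, and experiment 10 had 0 counts at both positions. In every other experiment compared, Ezh2 was higher in distal cells. Eed was higher in proximal cells in experiments 8, 9 and 10, with 157, 3584 and 5 counts against 0, 1 and 1. The equal experiments of Rbbp4 were 8, 9 and 10, with 0 counts.

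In H3K4me3, Ezh2 was higher in proximal cells in 1 of 5 experiments, at -1.10 with an interval from -2.98 to 0.78, and Rbbp4 in 1 of 5 experiments, at -0.37 with an interval from -1.77 to 1.02. Rbbp7 did not pass the filter in H3K27me3, and in H3K4me3 it was at -0.14 with an interval from -2.03 to 1.75. The difference between the antibodies in the effect of position was not called for any of 9963 genes (0%), with 610 at an unadjusted p below 0.05 by edgeR and 47 called by DESeq2, 0 of them members. Without H3K27me3 experiments 8 to 10, 0 members were called either.

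The clusters Mix, Proxi and Dista were made by the study from the expression of the same cells, so their values are a description. The members were found in 11.3% (Suz12) to 18.6% (Rbbp4) of 291 Mix cells, in 28.6% (Eed and Suz12) to 50.4% (Rbbp4) of 133 Proxi cells and in 39.7% (Suz12) to 48.8% (Rbbp4) of 121 Dista cells. But 153 of the 291 Mix cells came from H3K27me3 experiments 8 to 10. In the other 138 Mix cells, Ezh2 was found in 33.3%, Eed in 30.4%, Suz12 in 23.2%, Rbbp4 in 39.1% and Rbbp7 in 34.1%.

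Without those experiments, Ezh2 was found in 31.2% of 125 Proxi cells and 48.7% of 117 Dista cells, Suz12 in 30.4% and 41.0%, Eed in 29.6% and 41.0%, Rbbp4 in 53.6% and 50.4%, and Rbbp7 in 51.2% and 47.9%. Cells of the clusters differ in depth, so each was also thinned to 20000 counts, which left 129 of 138 Mix, 115 of 125 Proxi and 92 of 117 Dista cells. Thinning made the read totals equal, and not the number of molecules behind them. Then Ezh2 was found in 10.9% of Mix, 20.0% of Proxi and 33.7% of Dista cells, Suz12 in 3.10%, 13.0% and 25.0%, and Rbbp7 in 11.6%, 22.6% and 28.3%. Eed and Rbbp4 had the same order, with 9.30%, 16.5% and 22.8%, and with 17.1%, 25.2% and 33.7%. After thinning, all 5 listed members were thus found least often in Mix cells, whereas without thinning Ezh2 and Eed were found in Mix about as often as in Proxi cells. The order of Proxi and Dista for Rbbp4 and Rbbp7 turned with thinning. The clusters drew on different experiments, and shares within an experiment were not compared. H3K4me3 experiment 4 gave 32 Mix and 5 Dista cells, and experiment 5 gave 7 and 24. In summed cells of H3K4me3 experiment 2, Ezh2 was lowest in Mix, at 11.3 CPM against 297 in Proxi and 341 in Dista. In experiment 5 it was highest in Mix, at 410 CPM against 92.5 in Proxi and 189 in Dista.

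The antibody experiments differed in the order of the clusters before thinning and had a like order after it. In H3K4me3 cells, Ezh2 was found in 63.5% of 52 Dista cells (49.9% to 75.2%), 29.3% of 75 Proxi cells and 24.1% of 83 Mix cells, and after thinning in 36.5%, 18.9% and 10.8%. In H3K27me3 experiments 1 to 7, it was found in 36.9% of 65 Dista cells (26.2% to 49.1%), 34.0% of 50 Proxi cells and 47.3% of 55 Mix cells, and after thinning in 30.0%, 22.0% and 10.9%. Rbbp4 was found in 71.2% of Dista, 61.3% of Proxi and 47.0% of Mix cells in H3K4me3, and in 33.8%, 42.0% and 27.3% in H3K27me3 experiments 1 to 7. After thinning these shares were 44.2%, 28.4% and 20.5% in H3K4me3 and 20.0%, 19.5% and 10.9% in H3K27me3 experiments 1 to 7.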

How the data were processed

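Gene expression of 54 bulk libraries and 752 single cells was analysed here, and the libraries of histone marks were not used here. For the bulk files, the authors deposited unscaled counts of the read pairs that fell on exons of mm9 genes, made with Trim Galore 0.6.4, STAR 2.5.4b and featureCounts 2.0.0 (2.0.1 in some file headers). The single-cell counts were made by the authors with zUMIs from exonic and intronic reads, without molecular identifiers, and positions and clusters are those of the study's tables.

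Rn45s was removed before CPM and RPKM were calculated. Differences were tested with edgeR 4.0.16 (TMM, its filter on low counts, quasi-likelihood, two-sided), with p adjusted over all genes tested (Benjamini-Hochberg) and a threshold of 0.05. SE is the log2 fold change divided by the root of F, and intervals are 1.96 SE. This multiplier is that of a normal distribution, so with few libraries the intervals are narrower than 95% intervals of the test. For Ezh2 with 3 ng against 300 ng, the interval ran from 0.026 to 1.2 while the unadjusted p was 0.095 by edgeR. Single cells were summed per experiment and position over at least 3 cells. DESeq2 1.42.0, its size factors, no filter, Rn45s kept, a replicate block, other control libraries, limma 3.58.1 on single cells and each library left out were the alternatives. Deviations of same-numbered libraries correlated at 0.845 to 0.904 in the 3 pairs of Tn5 amounts, so those numbers were taken to pair the libraries. In fits that left a group with 1 library, its spread was taken to equal that of the other groups. The edgeR fit was checked on simulated data for the first comparison of each set of bulk libraries and for position in H3K4me3 cells. The other comparisons and the alternatives were not checked in this way. Calculations used Python 3.11.15 with matplotlib 3.10.9, pandas 2.3.3, numpy 2.4.6 and scipy 1.17.1, and R 4.3.3.

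Sequences and GC content were read from NCBIM37 (the same build as mm9), and guides from the study's lists. Members and lists were chosen with earlier results of these data known. The 6 members were always named, with Aebp2 and Hprt beside results they touch, and of each list at most the 2 called genes with the largest absolute log2 fold change. Genes of like pattern are the 3 with the highest Pearson's r over the 27 conditions, with a pseudocount of 1, among genes with a mean of at least 10 CPM.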

Additional observations from a re-analysis of the deposited data

Results flagged for a closer look

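Rbbp7 in H3K27me3 single-cell experiment 7 was at 240.3 CPM, far above the other 9 experiments, whose highest value was 101.7 CPM, and its gap to them took 0.577 of the whole range. Chance flags about 1 in 20 groups where values are normally distributed, which was not shown for these sums. Every listed member was screened with either antibody. Suz12 differed between the 2 Aebp2 KO clones, by 0.59 on the log2 scale.

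The members were also found in the 207 single cells that the filter on genes left out, Ezh2 and Eed in 29.95% of them each, Suz12 in 29.47%, Rbbp4 in 32.85% and Rbbp7 in 36.71%. Of these cells, 158 were H3K4me3 cells, 38 came from H3K27me3 experiments 1 to 7 and 11 from experiments 8 to 10, in which 0 cells held a member.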

How the results depend on the processing

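Leaving out 1 library or experiment at a time, the number of members called ran from 5 to 5 at 37 °C against 16 °C, 1 to 1 for 30 against 5 min, 0 to 0 for Tn5, 0 to 5 for 3 ng, 0 to 4 for 30 pg, 4 to 5 against ligation, 3 to 6 for SET-seq against in vitro, 0 to 0 between antibodies, 5 to 5 for 100 against 10000 cells, 4 to 5 for co-assay against no antibody, 0 to 4 for 10 against 10000 cells, 3 to 4 for KO against WT, 0 to 2 between clones and 0 to 0 in the single-cell tests. DESeq2 called 3 members with 3 ng (822 genes against 0; 27 genes without a filter) and 1 in 10 against 10000 cells (271 genes against 0), where no filter also called 1 (177 genes). KO against WT gave 1 member by the study's rule (2857 genes against 5454) and 1 with 6 libraries as WT, and KO1 against KO2 gave 0 by that rule (664 genes against 1121; 589 with DESeq2). On DESeq2's values, chosen after seeing the data, the study's rule called 1 member, Rbbp7 (2669 genes), and 0 between clones (482 genes). The 5 min libraries alone called 3367 genes between temperatures against 7508. In single cells DESeq2 called 60, 227 and 47 genes and no filter 16, 9 and 1, against 0. Leaving out H3K27me3 experiments 8 to 10, chosen after seeing the data, called 0 members.

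Where the value was called in either fit, 5 of the members' log2 fold changes changed sign: Suz12 to -0.68 at 16 °C against ligation, Ezh1 to -9.33 for 10 against 10000 cells without replicate 1 of 10 cells, where the remaining library has no Ezh1 count (0.86 without replicate 2), and Ezh1 to -0.64, Ezh2 to -0.33 and Suz12 to -1.07 with in vitro libraries as WT. The cause was not tested. Of the others that kept their direction, 537 stayed called, 812 stayed uncalled, 32 passed newly and 35 no longer passed. A further 45, called in neither fit, also changed sign. Against WT, Rbbp4 was at -0.43 with the 6 H3K27me3 co-assay libraries and -0.18 with in vitro libraries as WT and -0.032 in KO2 alone, where Ezh1 was at -0.040. With the 300 ng group alone, Eed was at 0.15 and Rbbp7 at 0.064 in SET-seq against in vitro. By position in H3K4me3, all cells gave 0.16 for Ezh2, -0.38 for Eed and 0.26 for Rbbp4, limma gave 0.012, -0.54 and 0.075, and DESeq2 size factors gave -0.00067 for Eed. The difference between antibodies by position was -0.78 with all cells, -0.37 with limma and -0.18 without H3K27me3 experiments 8 to 10 for Ezh2, and -0.028 without them for Eed. Leaving out 1 library or experiment gave, for 30 against 5 min, -0.035 to 0.068 for Ezh2 and -0.037 to 0.20 for Suz12. For Tn5 it gave -0.48 to 0.38 for Ezh1, -0.091 to 0.96 for Suz12, -0.0068 to 0.28 for Rbbp4 and -0.17 to 0.33 for Rbbp7. For RNA input it gave -0.17 to 0.023 for Ezh1 with 3 ng and -0.17 to 0.65 for Ezh2 with 30 pg. Between antibodies it gave -0.096 to 0.037 for Ezh1, -0.023 to 0.067 for Suz12 and -0.0050 to 0.060 for Rbbp7. For co-assay against no antibody it gave -0.043 to 0.26 for Rbbp7, and between clones -0.17 to 0.12 for Eed. By position in H3K4me3 it gave -0.68 to 0.69 for Eed, -0.81 to 0.033 for Rbbp4 and -0.69 to 0.50 for Rbbp7, and for the difference between antibodies -0.024 to 1.27 for Rbbp7. With Rn45s kept, median levels were 27.32 CPM for Ezh1, 181.6 for Ezh2, 119.6 for Eed, 190.3 for Rbbp4 and 130.3 for Rbbp7. Shares of cells with at least 2 counts were 16.51% for Ezh2, 13.94% for Eed, 12.29% for Suz12, 21.1% for Rbbp4 and 15.96% for Rbbp7, and after thinning 13.6%, 11%, 8.4%, 16.4% and 13.4%.

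By their labels the replicate numbers pair no samples. Deviations of same-numbered libraries correlated at -0.392 to 0.553 outside the Tn5 series. The replicate block called 0 members (0 genes against 2445) with 30 pg and 1 (13 genes) in 10 against 10000 cells, where Ezh1 changed sign to -0.74, and changed no other member call. In the Tn5 series, where the numbers paired the libraries, it called 0 members and 0 genes, with 1587 genes at an unadjusted p below 0.05 against 84.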

Other observations

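Aebp2, whose product is an accessory subunit of PRC2, was at far higher levels in most H3K27me3 single cells than in any bulk library. It was above 10000 CPM in 125 of 170 cells of H3K27me3 experiments 1 to 7, in 150 of 165 cells of experiments 8 to 10 and in 12 of 210 H3K4me3 cells. The median over cells was 19660, 21040 and 18.07 CPM in the same order, and H3K27me3 experiment 3 was at 123 CPM. The highest bulk level of Aebp2 was 132 CPM, in a ligation-based library. By cluster, 198 of 291 Mix cells, 40 of 133 Proxi cells and 49 of 121 Dista cells were above 10000 CPM. H3K27me3 experiments 8, 9 and 10 gave 56, 43 and 54 of the Mix cells. They gave 5, 2 and 1 of the Proxi cells and 1, 2 and 1 of the Dista cells. Thus cluster and experiment cannot be told apart in these counts.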
